A study of Triticum aestivum and Triticum urartu and Aegilops speltoides with 12 samples.

Results

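Of 42683 array features designed from bread wheat sequences, 184 were low in Triticum urartu and high in the other 5 plants of the series. They were chosen by their level in each plant, taken as log2 of the deposited intensity, with values under 7 set to 7 and the 2 arrays of a plant averaged. A feature was kept where the widest gap between neighbouring plants was 2 or more, which is at least 4-fold, and T. urartu was the only plant below it. The rule allowed for 200 features, so all that met it are described here. They are 0.431% of the bread wheat features and are drawn from 56855 features in all. The low level in T. urartu is what chose them, and it is described without a test.

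The 12 single-colour arrays comprised 2 for each of 6 plants. Triticum urartu was titled A, and the others were rye (Secale cereale, R), a hexaploid line with the 2BS.2RL wheat-rye translocation (2BS2RL), a hexaploid bread wheat (Triticum aestivum, ABD), Aegilops speltoides (B) and Aegilops tauschii (D). The labels call T. urartu, Ae. speltoides and Ae. tauschii the diploid progenitors of wheat. Each array carried RNA of 2 whole seedlings with leaves and roots, grown untreated in one potting mix and harvested on day 10 at the third leaf stage, and both arrays of a plant were independent biological samples. Each sample therefore pools seedlings and organs. The labels read here name no line or variety, so each species stands for seed of unknown origin. The feature IDs matched no gene in the RefSeq table (0 matches), so features are given by ID, the roles of their genes are not known here, and the seedling tissue could not be checked against marker genes.

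Bread wheat carries the A, B and D genomes side by side, brought together by crosses of diploid grasses. Most genes are thus present as homoeologues, related copies that sit on the matching chromosomes of each genome. T. urartu is the donor of the A genome, Ae. tauschii is the donor of the D genome, and Ae. speltoides is a close relative of the B genome donor. A feature built from a bread wheat sequence can read any homoeologue that resembles it closely enough. A low value in a diploid can come with little transcript, with a gene that the sampled plants lack, or with a sequence that pairs poorly with the probe. These cannot be told apart on these arrays, and in whole seedlings neither can fewer expressing cells and less RNA per cell.

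Array medians over all features ranged from 1588 to 1667 in intensity. Replicate arrays correlated across bread wheat features at r = 0.968 to 0.989, with 0.982 for T. urartu, as a description over features that are not independent. Each array also carried 1 random control feature, read here as a background level and not as a detection limit. On the log2 scale it lay at 6.97 and 7.01 on the T. urartu arrays, 7.34 and 7.47 in rye, 6.47 and 6.50 in translocation, 6.56 and 6.50 in wheat, 7.30 and 7.25 in Ae. speltoides, and 6.95 and 7.07 in Ae. tauschii. Its level in T. urartu was thus within the range of the other plants.

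Over the 184 features, the group mean in T. urartu had a median of 8.06 (log2), an intensity of 267. It ranged from 3.97 to 11.90. In the other plants the medians were 11.30 in rye, 11.49 in translocation, 11.46 in wheat, 11.52 in Ae. speltoides and 11.67 in Ae. tauschii, or intensities of 2520 to 3260. No feature of the set lay at or below the random control in any plant but T. urartu (0 cases), and the lowest single value outside T. urartu was 8.73. The median over all bread wheat features, in contrast, was 10.21 in T. urartu, against 10.11 in rye, 10.28 in translocation, 10.28 in wheat, 10.21 in Ae. speltoides and 10.31 in Ae. tauschii. The scaled T. urartu values were therefore not low as a whole. The deposited arrays are scaled to nearly one distribution, so these medians cannot show whether the T. urartu arrays were dim before scaling.

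**Figure D1:**
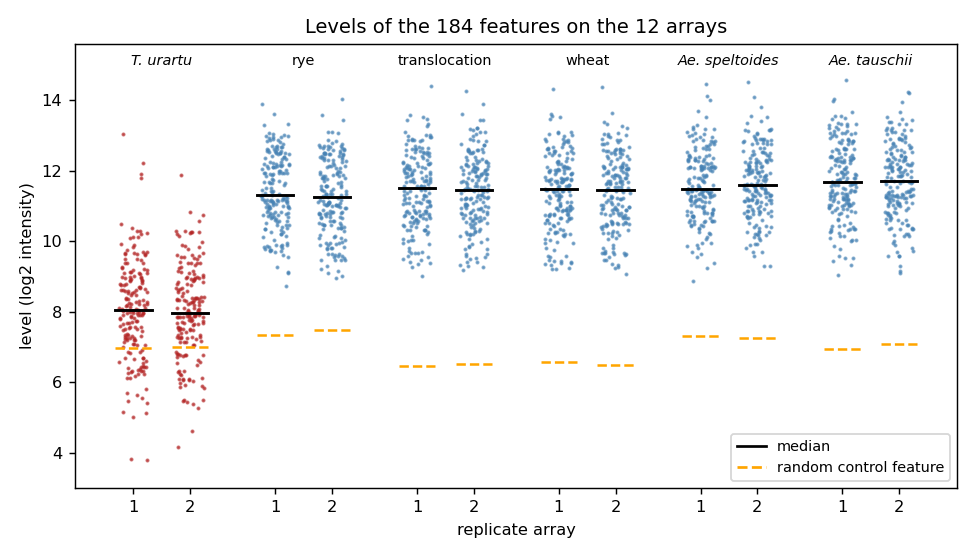
Each point is the log2 intensity (vertical axis) of 1 of the 184 features on 1 array (horizontal axis, 2 replicate arrays for each of 6 plants), with the median of each array as a black line and its random control feature as a dashed line. The T. urartu medians of 8.06 and 7.97 lie about 1 log2 unit above the control, while the 10 other arrays have medians from 11.25 to 11.70.

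"Missing" in T. urartu held for a minority of the set. In T. urartu, 32 of the 184 features lay at or below the random control on both arrays, 13 on 1 array and 139 on neither. Of all bread wheat features, 11.5% lay at or below it on both T. urartu arrays. Among the 184, 81 lay at least 1 log2 unit above the control on both T. urartu arrays and 31 at least 2 units above it. The set is therefore described here as low in T. urartu, and as at background only for the 32. For the 139 features above the control on both arrays, the lowest of the other plants exceeded T. urartu by 4.01-fold to 22.0-fold, with a median of 5.60-fold. For the 32 at background the fold is only a lower bound against the control, which ran from at least 4.21-fold to at least 24.8-fold.

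The gap had a median of 2.54 and a range of 2.00 to 4.86. It was under 2.5 in 88 features, at least 3 in 50 and at least 4 in 8. The features nearest the threshold had gaps of 2.004 and 2.005 inside it. Their T. urartu means were 9.71 and 9.44, against 11.71 and 11.45 in the next plant. The nearest outside had gaps of 1.999 each, with T. urartu means of 6.70 and 10.22, against 9.03 and 12.22 in the next plant.

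The widest gap belonged to Taestivum_ESTC030509. Its log2 levels were 7.25 and 6.85 in T. urartu, against 12.11 and 11.86 in rye, 12.61 and 12.39 in translocation, 12.62 and 12.23 in wheat, 12.09 and 12.31 in Ae. speltoides, and 13.14 and 13.03 in Ae. tauschii. Both T. urartu arrays lay far below the 10 others, and 1 of them was at the random control. The level in rye, the lowest of the other plants, was 30.6-fold that in T. urartu by the measured means, and 29.0-fold with the control in place of the T. urartu array that lay below it. Next came Taestivum_ESTC005765, at background in T. urartu. It measured 5.80 and 5.91 in T. urartu, against 11.71 and 11.54 in rye, 11.82 and 11.93 in translocation, 11.95 and 11.63 in wheat, 12.11 and 12.10 in Ae. speltoides, and 12.42 and 12.20 in Ae. tauschii. Here the T. urartu level was at least 24.8-fold lower than in rye, again the lowest of the others.

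The features with the narrowest gaps kept clear signal in T. urartu. Taestivum_ESTC039433 measured 9.65 and 9.77 in T. urartu, against 11.94 and 11.48 in rye, 11.99 and 11.57 in translocation, 11.92 and 11.80 in wheat, 12.11 and 11.84 in Ae. speltoides, and 11.92 and 11.97 in Ae. tauschii. The 5 other plants were nearly level with one another, and T. urartu stood apart well above the random control. Taestivum_ESTC004919 measured 9.49 and 9.40 in T. urartu, against 11.13 and 11.77 in rye, 12.07 and 12.19 in translocation, 12.02 and 12.29 in wheat, 12.31 and 12.47 in Ae. speltoides, and 12.97 and 12.85 in Ae. tauschii. In both features the next plant exceeded T. urartu by 4.01-fold.

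**Figure D2:**
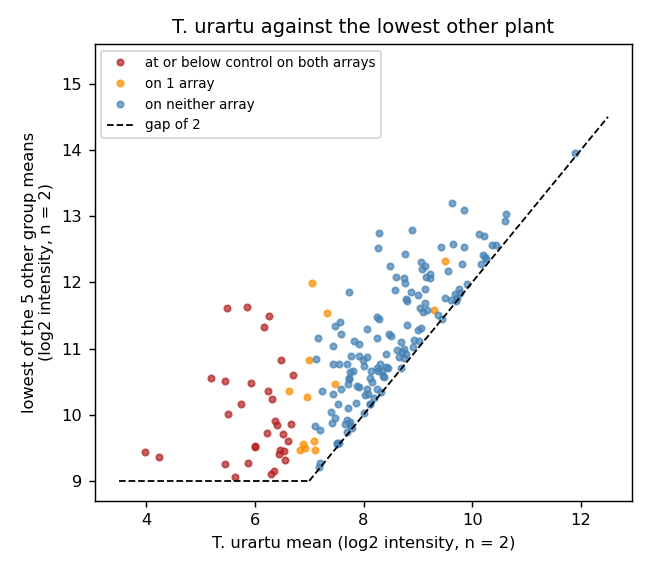
The T. urartu mean (horizontal axis, log2 intensity, n = 2) is set against the lowest of the 5 other group means (vertical axis, log2 intensity, n = 2) for each of the 184 features, coloured by the number of T. urartu arrays at or below the random control (32 on both, 13 on 1, 139 on neither). The dashed line marks the gap of 2 that the rule asks for, with values under 7 set to 7.

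Both T. urartu arrays lay below all 10 others in 181 of the 184 features, a pattern that 8.94% of all bread wheat features showed. The rule asks for a wide gap in the means of these same arrays, so this separation largely follows from it. In the other 3 the replicates disagreed. All 3 were high on array 1 and low on array 2. Taestivum_ESTC014890 measured 12.23 and 6.76 in T. urartu, against 12.10 to 13.09 on the other arrays. Taestivum_ESTC010324 measured 13.05 and 7.68, against 12.24 to 13.37. Taestivum_ESTC026031 measured 11.80 and 6.81, against 11.52 to 12.45. These features, named because their values stood out, thus lay within the range of the other plants on T. urartu array 1. They met the rule through array 2 alone.

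Among all bread wheat features, array 1 exceeded array 2 by at least 4 log2 units in 20 cases in T. urartu and array 2 exceeded array 1 in 0. In Ae. speltoides the same counts were 90 and 1, in rye 13 and 5, in Ae. tauschii 2 and 2, in translocation 1 and 1, and in wheat 0 and 1. Such one-sided disagreement therefore also occurred outside T. urartu. Apart from those 3 features, the replicate T. urartu values of the set differed by at most 2.01, and 128 features differed by under 0.5. The median absolute difference between replicates over the set was 0.30 in T. urartu, 0.25 in rye, 0.20 in translocation, 0.13 in wheat, 0.16 in Ae. speltoides and 0.13 in Ae. tauschii. Over the 23372 other bread wheat features at 9 or more in the 5 other plants, it was 0.16 in T. urartu and 0.25 in rye. There it was 0.17 in translocation, 0.14 in wheat, 0.18 in Ae. speltoides and 0.16 in Ae. tauschii. The T. urartu value was thus larger in the set, which was chosen as low there, than in those features.

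**Figure D3:**
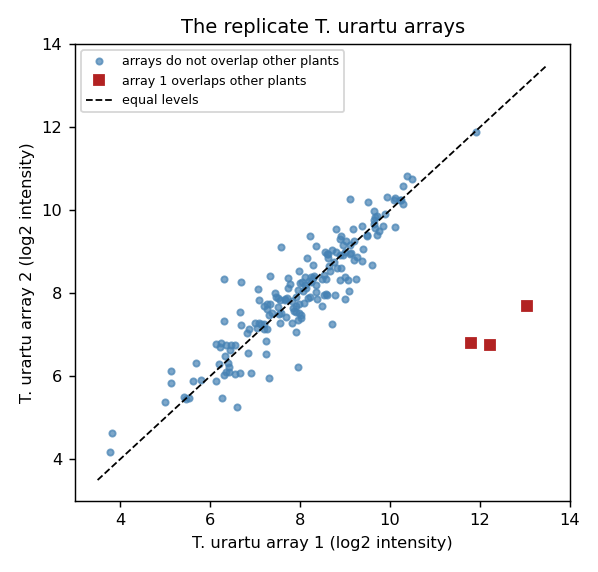
T. urartu array 1 (horizontal axis) is plotted against T. urartu array 2 (vertical axis), both as log2 intensity, for the 184 features. Most lie near the line of equal levels, while 3 features (squares) measured 11.80 to 13.05 on array 1 and 6.76 to 7.68 on array 2.

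The rule uses the mean of both replicates, so it was also applied to 1 array of each plant and the gap was then read on the arrays it had not used. The replicate 1 arrays gave 197 features. On the replicate 2 arrays T. urartu was the lowest plant in all 197, the gap between T. urartu and the next plant had a median of 2.34, and 145 met the rule again. Of all bread wheat features, 0.494% met the rule on the replicate 2 arrays. Chosen on the replicate 2 arrays, 211 features were found. T. urartu was the lowest plant in 193 of them on the replicate 1 arrays, with a median gap of 2.37, and 145 met the rule again, against 0.462% of all bread wheat features. Replicates share the plant and the probes, so these counts describe only how well the values repeat. Leaving out T. urartu array 1 gave 198 features by the rule, 167 of them among the 184, and leaving out T. urartu array 2 gave 201, with 169 among the 184.

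The same pattern appeared among features built from other sequences, in 44 of 14172 (0.31%). There were 23 of 5731 from rye, 6 of 2489 from Ae. speltoides, 1 of 114 from Ae. tauschii, 1 of 114 labelled Ae. squarrosa, and 13 of 5724 from Triticum monococcum. T. monococcum is einkorn, a diploid A-genome wheat and close relative of T. urartu. The 13 einkorn features had a median log2 level of 7.11 in T. urartu, against 10.89 in rye, 10.60 in translocation, 10.56 in wheat, 10.94 in Ae. speltoides and 11.03 in Ae. tauschii. Of these, 2 were at or below the random control on both T. urartu arrays. Sequences of an A-genome species were thus also among those low in T. urartu alone, at a share of 0.227%, against 0.431% of the bread wheat features. The difference between these shares was not tested.

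With another plant as the only low one, the rule found 482 bread wheat features for rye, 175 for Ae. speltoides, 109 for Ae. tauschii, 2 for translocation and 0 for wheat. Every one of the 184 features had 2 probes, as did 42671 of all bread wheat features. The probes were not read separately, so a low value that comes from only 1 of them cannot be seen here. Features can share a transcript, which was not tested by sequence. When features within 0.25 of each other (root mean square over the 12 arrays, log2) were joined, 24 of the 184 fell into shared profiles and 171 profiles remained. The number depends strongly on that distance: joined within 0.5, 154 fell into shared profiles, 124 of them into 1, and 40 profiles remained. Counts of features below are therefore not counts of independent genes.

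The levels among the 5 other plants were not ordered by the rule, which only holds each of them at 9 or more and keeps the gaps between them smaller than the one below. Differences among them were tested in one limma model fitted to all 56855 features and 12 arrays. A feature was called at a Benjamini-Hochberg adjusted p under 0.05 over all features with a log2 difference of at least 1. Because the set is bright outside T. urartu, its counts are also read against the 23372 other bread wheat features at 9 or more in the same 5 plants, called the other bright features below. The comparisons share arrays, apart from translocation against wheat, which shares none with the comparison of Ae. speltoides and Ae. tauschii or with that of rye and these species.

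Over the 5 plants the means of a feature spanned a median of 1.07 log2 units, from 0.26 to 3.11. They spanned under 1 in 82 features (44.6%), against 66.6% of the other bright features. Rye was the lowest of the 5 in 75 features (40.8%), against 24.6% of the other bright features. Ae. tauschii was the highest in 86 (46.7%), against 25.2%. The spans and ranks were counted on the deposited scaling alone, and differences between plants depend on the scaling. In all, 76 of the 184 were called in at least 1 of the 4 comparisons and 108 in none. The corresponding share of all 56855 features was 33.2%, which includes dim features. It was not counted over the other bright features, so the 76 are not read as a result about the set.

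In the translocation line against wheat, 1 feature was called higher and 0 lower. The labels do not say whether this wheat is a parent of the line, so the arm and other differences between the lines cannot be told apart. Over all features 0.331% were called higher and 0.311% lower, and over the other bright features 0.111% and 0.0556%. At an unadjusted p under 0.05 in limma, 7 were higher and 3 lower. The share of all features at that cutoff is not given here, so these counts are not read as a result about the set. The median difference over the 184 was 0.03, against 0.00 over all features, with quartiles of -0.08 and 0.14 and a range of -1.13 to 1.06. By size alone, 2 features were lower by at least 1 and 1 was higher, while 1.77% of all features differed by at least 1 in either direction. The called feature, Taestivum_ESTC039213, had log2 levels of 13.09 and 13.17 in translocation, against 12.10 and 12.05 in wheat. Both translocation arrays were also the highest of all 12. The difference was 1.06 ± 0.13 (SE, n = 2 each, limma adjusted p = 0.00435). Without translocation replicate 2 it was 1.02 (limma adjusted p = 0.0599), and without wheat replicate 2 it was 1.04 (limma adjusted p = 0.0553).

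In rye against the mean of Ae. speltoides and Ae. tauschii, 30 features were lower and 6 higher. Over all features 10.4% were lower and 7.67% higher, and over the other bright features 7.57% and 2.77%. The 30 and 6 are 16.3% and 3.26% of the 184. The median difference was -0.31, against 0.09 over all features and 0.03 over the other bright features, and 132 of 184 lay below 0. With the arrays shifted to an equal random control 48 features were lower and 4 higher, against 12.4% and 1.29% of the other bright features. The rule limits how low rye may lie, since rye must stay above the gap.

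The largest decrease in rye was in Taestivum_ESTC013870. It measured 8.73 and 10.09 in rye, against 12.03 and 12.14 in Ae. speltoides and 12.04 and 11.86 in Ae. tauschii. The rye replicates disagreed by more than 1 log2 unit but both lay below the 4 Aegilops arrays. The difference was -2.61 ± 0.33 (SE, limma adjusted p = 0.000262). Taestivum_ESTC002854 had tighter replicates, with 9.55 and 9.45 in rye, against 12.10 and 11.94 in Ae. speltoides and 12.30 and 12.05 in Ae. tauschii. Its difference was -2.60 ± 0.13 (SE, limma adjusted p = 8.39e-07). Both were near background in T. urartu, with means of 6.45 and 6.93, so rye lay between T. urartu and the Aegilops species.

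The largest increase in rye was in Taestivum_ESTC036831. It measured 12.67 and 12.49 in rye, against 9.23 and 9.71 in Ae. speltoides and 9.86 and 10.45 in Ae. tauschii, a difference of 2.77 ± 0.23 (SE, limma adjusted p = 1.75e-05). The hexaploids were also above the Aegilops species in this feature, with 10.82 and 11.23 in translocation and 12.11 and 12.20 in wheat. Translocation and wheat differed here by -1.13, which did not pass the test (limma adjusted p = 0.168). Taestivum_ESTC027430 measured 12.41 and 13.43 in rye, against 11.14 and 12.04 in Ae. speltoides and 10.78 and 10.52 in Ae. tauschii. Its difference was 1.80 ± 0.33 (SE, limma adjusted p = 0.00236).

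**Figure D4:**
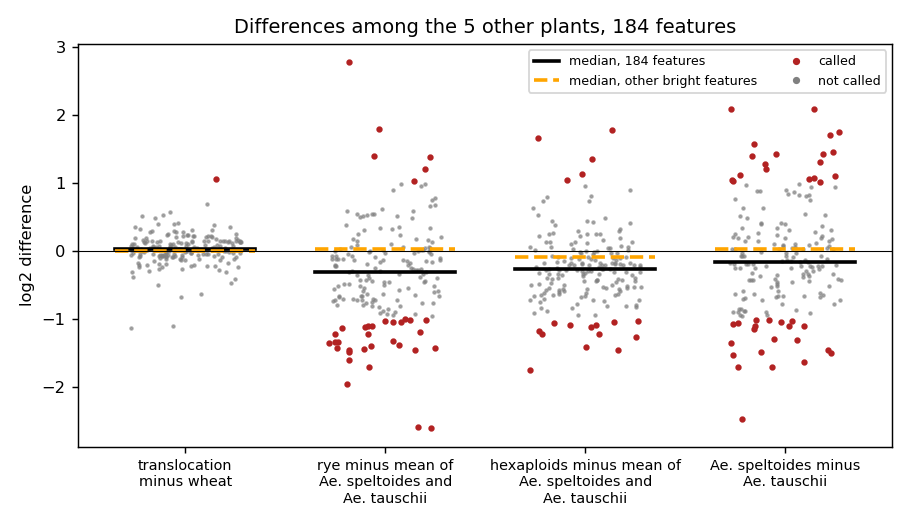
The log2 difference (vertical axis) in each of 4 comparisons (horizontal axis) is shown for the 184 features, with called features in red, the median of the 184 as a black line and the median of the other bright features as a dashed line. Translocation minus wheat has a median of 0.03 and a range of -1.13 to 1.06 with 1 called feature, while rye minus the Aegilops mean has a median of -0.31 with 30 features called lower.

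The levels in the hexaploids, which carry an A genome with B and D genomes, were set beside those of the diploids. The labels name no line or variety, so the sampled diploids cannot be taken as parents of these hexaploids. What becomes of a transcript when the genomes combine was not tested. On the linear scale, the mean of translocation and wheat was compared with the mean of the diploid progenitors for each feature. As a mark on that scale, 2/3 of the mean of Ae. speltoides and Ae. tauschii, or -0.58 in log2, is the sum of their levels shared equally over 3 genomes. It is arithmetic and no prediction for these arrays, which are scaled to nearly one distribution, and Ae. speltoides is not the B genome itself.

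The 184 features had a median of -0.29 (log2) against the linear mean of Ae. speltoides and Ae. tauschii, a ratio of 0.817, with quartiles from -0.61 to -0.07. The other bright features had a median of -0.12, a ratio of 0.922. The set was thus 0.18 lower than the other bright features on this measure. The replicate 1 arrays alone gave -0.28 and the replicate 2 arrays alone gave -0.30, and translocation alone gave -0.28 and wheat alone -0.30. The hexaploid level was below 2/3 of the Aegilops mean in 50 features (27.2%), against 9.54% of the other bright features. It was between 2/3 and the mean in 92 (50.0%), against 54.3%, and above the mean in 42 (22.8%), against 36.1%. Against the linear mean of all 3 progenitors, the 184 had a median of 0.21 and the other bright features -0.10. That mean includes the low T. urartu value that chose the set, so the direction of this contrast is not a result.

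The size and sign of these medians depended on the scaling between arrays, and the distance from the other bright features less so. Against the Aegilops mean, the 184 had a median of -0.19 and the other bright features -0.03 with cyclic loess. With the arrays shifted to an equal random control these were 0.32 and 0.51. The set was lower by 0.16 and by 0.19 under these scalings. This distance was given no test.

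The 32 features at background in T. urartu had a median of -0.44 against the Aegilops mean, with quartiles from -0.77 to 0.02, and the 139 above the control had -0.28, with quartiles from -0.54 to -0.09. These ranges overlapped widely. The features low in Ae. speltoides alone had a median of -0.21 against the mean of T. urartu and Ae. tauschii. Those low in Ae. tauschii alone had -0.38 against the mean of T. urartu and Ae. speltoides. The value for T. urartu lay between these, so the lower hexaploid level is not described here as particular to transcripts low in T. urartu.

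**Figure D5:**
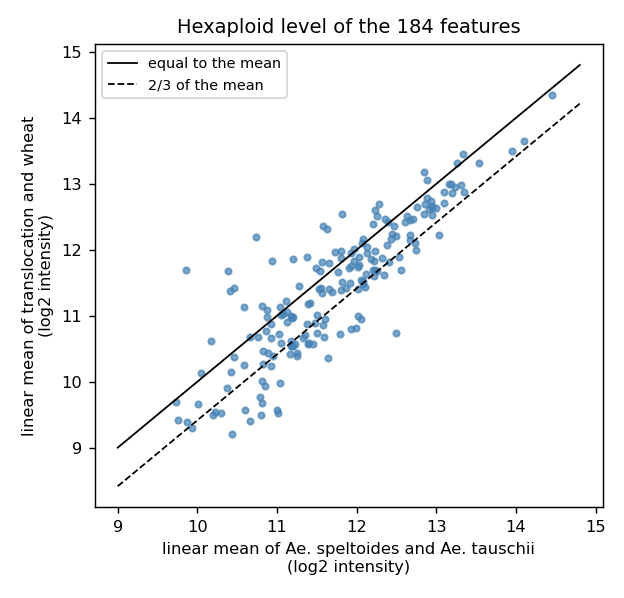
The linear mean of translocation and wheat (vertical axis, as log2 intensity) is plotted against the linear mean of Ae. speltoides and Ae. tauschii (horizontal axis, as log2 intensity) for the 184 features. Values and counts are those of the deposited scaling. The solid line marks equal levels and the dashed line 2/3 of the Aegilops mean, with 50 features below the dashed line, 92 between the lines and 42 above the solid one.

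By single features, 13 of the 184 were lower in the hexaploids than the log2 mean of Ae. speltoides and Ae. tauschii and 5 were higher. Over all features 4.03% were lower and 8.59% higher, and over the other bright features 1.46% and 3.05%. The 13 and 5 are 7.07% and 2.72% of the 184. This split turned with the scaling, to 4 lower and 7 higher with cyclic loess and 1 lower and 19 higher with the arrays shifted to an equal random control. Of the other bright features, 0.74% were lower and 3.79% higher with cyclic loess, and 0.0941% and 13.4% with the shift. The median of all features in this comparison was -0.12 as deposited, 0.51 with the shift and -0.01 with cyclic loess.

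Taestivum_ESTC006605 was the lowest of the 13. It measured 10.73 and 10.19 in translocation and 10.93 and 10.99 in wheat, against 11.99 and 12.28 in Ae. speltoides and 12.89 and 12.66 in Ae. tauschii. All 4 hexaploid arrays lay below all 4 Aegilops arrays, and the difference was -1.74 ± 0.30 (SE, limma adjusted p = 0.00175). In T. urartu this feature measured 6.70 and 8.26. Taestivum_ESTC028437 measured 9.48 and 9.59 in translocation and 9.57 and 9.48 in wheat, against 10.57 and 10.87 in Ae. speltoides and 11.28 and 11.21 in Ae. tauschii. Its difference was -1.45 ± 0.11 (SE, limma adjusted p = 8.87e-06), and -0.82 with the arrays shifted to an equal random control, under the size needed for a call.

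The reverse was seen in Taestivum_ESTC036831, whose values are given above, and in Taestivum_ESTC016057. Taestivum_ESTC036831 was 1.78 ± 0.19 higher in the hexaploids than in the Aegilops species (SE, limma adjusted p = 8.67e-05). Taestivum_ESTC016057 measured 11.68 and 12.26 in translocation and 12.28 and 12.50 in wheat, against 11.33 and 11.29 in Ae. speltoides and 9.53 and 9.95 in Ae. tauschii. Its difference was 1.66 ± 0.16 (SE, limma adjusted p = 5.29e-05). In T. urartu it measured 6.36 and 6.10, at background, so the hexaploids exceeded all 3 progenitors.

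Ae. speltoides and Ae. tauschii differed from each other in 40 of the 184 features. Ae. speltoides was higher in 19 and lower in 21, or 10.3% and 11.4% of the set. Over all features 7.53% were higher and 9.48% lower, and over the other bright features 4.9% and 6.85%. The median difference was -0.16, against 0.06 over all features. With the arrays shifted to an equal random control the calls were 10 higher and 34 lower, against 3.06% and 11.3% of the other bright features.

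Taestivum_ESTC015179 measured 12.84 and 13.00 in Ae. speltoides, against 10.60 and 11.07 in Ae. tauschii, a difference of 2.09 ± 0.19 (SE, limma adjusted p = 3.35e-05). The hexaploids were near the Ae. speltoides level, with 12.54 and 12.60 in translocation and 12.67 and 12.60 in wheat. Taestivum_ESTC010736 measured 12.42 and 12.22 in Ae. speltoides, against 10.09 and 10.37 in Ae. tauschii, a difference of 2.09 ± 0.18 (SE, limma adjusted p = 2.75e-05). It too was near the Ae. speltoides level in the hexaploids, at 12.21 and 12.55 in translocation and 12.37 and 12.11 in wheat. In the opposite direction, Taestivum_ESTC031783 measured 9.54 and 10.05 in Ae. speltoides, against 12.35 and 12.18 in Ae. tauschii, a difference of -2.47 ± 0.21 (SE, limma adjusted p = 2.29e-05). The hexaploids lay between, with 10.76 and 10.59 in translocation and 10.93 and 10.66 in wheat. Taestivum_ESTC006972 measured 9.94 and 10.27 in Ae. speltoides, against 11.81 and 11.81 in Ae. tauschii, a difference of -1.71 ± 0.19 (SE, limma adjusted p = 0.000123). There the hexaploids were nearer Ae. speltoides as deposited, with 10.33 and 10.69 in translocation and 10.65 and 10.46 in wheat. The position of the hexaploids between these diploids depends on the scaling between arrays. For these features it was read on the deposited scaling alone.

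Across the 19 features higher in Ae. speltoides, the median log2 level was 11.04 in translocation and 11.41 in wheat, against 11.54 in Ae. speltoides and 10.23 in Ae. tauschii. The mean of the hexaploids was nearer the higher of these diploids in 10 features and nearer the lower in 9. Across the 21 features lower in Ae. speltoides, the medians were 11.61 in translocation and 11.70 in wheat, against 11.18 in Ae. speltoides and 12.37 in Ae. tauschii, with the hexaploid mean nearer the higher diploid in 6 features and nearer the lower in 15. These positions were counted without a test and on the deposited scaling alone. They depend on the scaling between arrays, so no tendency towards either diploid is read from them. Over the whole set, the hexaploid mean lay below the log2 mean of Ae. speltoides and Ae. tauschii in 138 features as deposited. With cyclic loess it did so in 125 features, and with the arrays shifted to an equal random control in 37.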

How the data were processed

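Total RNA of 12 seedling samples was read on single-colour (Cy3) NimbleGen arrays with probes of 60 bp. The authors deposited 1 intensity per feature and array on a linear scale. The submitters' processing notes name RMA, without its version or steps. Raw probe intensities were not used, because their 12 columns carry codes that match no label, and only the probe IDs of that table were read. Background correction, normalization and probe summary from raw probes, and slide as a block, were for this reason not tried.

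Log2 was taken without an offset, and 8 control features were left out. Using limma 3.58.1 under R 4.3.3, a model of 6 group means was fitted to 56855 features without a filter and moderated with eBayes (2.97 prior degrees of freedom). The procedure was tested on simulated data. The number of arrays limits the precision. Samples were grouped by their titles. Named features are the 2 with the widest and the 2 with the narrowest gap, and for each comparison the 2 called features with the largest difference in each direction, among those with separate ranges of arrays in the compared plants. Other names are said to be chosen from their values. The members, comparisons and rules were chosen with earlier results of these data known, and the other bright features were defined after the data were seen. Between-array scaling hides any change in total transcript. Same-numbered arrays are not said to be paired, and the deviations of replicate arrays correlated between plants at -0.06 to 0.21. Alternatives were cyclic loess, a shift to an equal random control, a floor at 7, leaving out the dimmest 25% of features, a replicate block, other forms of the rule and leaving out each array.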

Additional observations from a re-analysis of the deposited data

How the results depend on the processing

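The count of features that meet the rule was 330 with a gap of at least 1.5 and 50 with a gap of at least 3, as fewer or more features are let in by construction. It was 254 without a floor, 229 with a floor at 6, 143 with a floor at 8, 176 with cyclic loess (170 of the 184 among them), 152 with the arrays shifted to an equal random control (140 among them), and 180 to 201 without each array. The count of features called between the hexaploids and the Aegilops mean was 11 with cyclic loess. The median hexaploid level against the linear mean of the 3 progenitors was 0.32 with cyclic loess and 0.82 with the shift, and 0.19 to 0.23 without each array. Against the linear mean of Ae. speltoides and Ae. tauschii it was -0.19 with cyclic loess and 0.32 with the shift, which turned its direction, and -0.30 to -0.27 without each array. The cause was not tested. Without each array, 0 to 2 features were called in translocation against wheat (0 without translocation replicate 2 and 0 without wheat replicate 2, and 2 without translocation replicate 1), 34 to 40 in Ae. speltoides against Ae. tauschii, 33 to 37 in rye against the Aegilops mean and 16 to 18 in the hexaploids against it, where a single remaining array takes its spread from the other plants. With the replicate block 1, 40, 36 and 18 features of the 184 were called in these comparisons, the same features as without it. The floor at 7 and leaving out the dimmest 25% also called the same features, with counts of 1, 40, 36 and 18. The lowest value of the 184 outside T. urartu was 8.73, so neither setting could change the differences themselves, only their adjusted p. Signal near the random control limits what can be said of the 32 features at background.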
